A study of Mus musculus with 12 samples.

Results

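Tmem215, Trpm5, Olfm4, Tssk6, Sgcz, Gm6999, Gm15644 and Gm14085 were genes whose reads were present in wild-type (Wt) pancreatic islets and nearly absent from Tg7 islets at 1 or both of the ages examined. They make up 8 of the 37991 genes in the count table, and each symbol matched 1 row. The islets came from male C57BL/6 mice aged 2 weeks (2w) or 12 weeks (12w). Tg7 mice overexpress the microRNA miR-7a2 in β-cells, and the Wt mice were their littermates without the transgene. There were 3 bulk RNA-seq libraries in each of the groups Wt 2w, Tg7 2w, Wt 12w and Tg7 12w, with islets of at least 3 animals pooled for each of them. The study describes the younger Tg7 mice as normoglycaemic and the older as hyperglycaemic, so that age and blood glucose cannot be told apart in the 12w Tg7 group. The sources used here do not give the promoter that drives the transgene. Because the Tg7 and Wt reads chose these genes, their differences between Tg7 and Wt are given as a description without a test.

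The 8 genes have unlike products. Trpm5 is a cation channel that opens on intracellular calcium, known from taste receptor cells, and in β-cells it carries depolarising current that speeds the electrical activity behind insulin release. Tmem215 and Sgcz encode transmembrane proteins, the latter ζ-sarcoglycan of the dystrophin-associated complex that links the cytoskeleton of muscle cells to the matrix. Olfm4 encodes a secreted glycoprotein, a marker of intestinal crypt stem cells and of a subset of neutrophils. Gm14085, for which the current RefSeq symbol is Slc28a2b, is a copy of the concentrative nucleoside transporter Slc28a2. Tssk6 encodes a serine/threonine kinase of developing sperm. Gm6999 is a long intergenic non-coding RNA, and Gm15644 a pseudogene. A microRNA such as miR-7 lowers its target mRNAs mainly through pairing of its seed with sites in their 3′ untranslated regions, and bulk islet RNA mixes β-cells with the other islet cells.

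Total counts per library ranged from 11610697 to 17515758. Ins1 and Ins2 together took up between 10.1% and 15.4% of counts in Wt 2w, 1.84% and 4.09% in Tg7 2w, 14.9% and 29.99% in Wt 12w, and 8.08% and 8.24% in Tg7 12w libraries, and levels were therefore scaled with TMM factors, which normalise for such shifts in composition (0.684 to 1.19). They are given as CPM, the count scaled to the size of the library (mean ± SD, n = 3). Of all genes, 15961 passed the expression filter and were tested with edgeR's quasi-likelihood test; genes with a Benjamini-Hochberg adjusted p below 0.05 are called. The overexpressed microRNA itself is not measured by these libraries. The Mir7-2 locus held 6 to 13 counts in Wt 2w, 0 to 8 in Tg7 2w, 2 to 10 in Wt 12w and 1 to 8 in Tg7 12w libraries. Of 16 β-cell marker genes, 11 were lower and none higher in Tg7 islets at each age, with a median log2 fold change of -1.66 at 2w and -1.60 at 12w, against 0.03 and -0.01 over all tested genes. Of these calls, Nkx6-1 at 12w (-0.37) was kept in 5 of 19 alternatives and stood at 0.09 with library size alone. Glp1r was kept in 10 of 19 at 2w (-1.61) and in 12 of 19 at 12w (-1.67). Most of its 12w value rested on Wt 12w replicate 4, with 2061 counts beside 234 and 337 in the other Wt 12w libraries. Without replicate 4 it stood at -0.45 (adjusted p = 0.189), and with the replicate block at -0.35. Neurod1 at 12w was lost with library size alone. Fewer β-cells and less RNA per β-cell cannot be told apart in these bulk libraries, and the part of either in the losses described here was not tested.

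The seed that defines miR-7 is shown because it was searched in the transcripts of the genes. In the RefSeq sequence of mouse miR-7a-5p, written 5′ to 3′, capitals mark bases 2 to 8.
miR-7a-5p: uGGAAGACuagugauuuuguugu
Its complement in mRNA, GTCTTCC, was absent from the longest annotated 3′ untranslated region of each of the 6 genes that have a coding transcript, and it was present in 11.2% of all 20007 genes with such a region (mm9 annotation, sense strand). The regions searched were between 387 bases (Tssk6) and 2536 bases (Tmem215) long, against a median of 891 bases over all genes. This says only that these letters are not in these regions.

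RefSeq promoter windows of assembly GRCm38.p6, 300 bases long and starting 250 bases before the gene start, were found unchanged in mm9 at the annotated start of Tmem215, Trpm5, Olfm4, Tssk6 and Gm14085, and 4 of them are printed for the genes with the most reads in Wt islets. They were searched on both strands for motifs of islet transcription factor families, namely TAATTA (homeodomain), TGTTTAC (forkhead), TGCTGA (Maf), GTTGCC (RFX), CATCTG (E-box) and GTTAAT (HNF1), and capitals mark every match. No matches of different motifs overlapped.
Tmem215, chr4:40418963-40419262, plus strand: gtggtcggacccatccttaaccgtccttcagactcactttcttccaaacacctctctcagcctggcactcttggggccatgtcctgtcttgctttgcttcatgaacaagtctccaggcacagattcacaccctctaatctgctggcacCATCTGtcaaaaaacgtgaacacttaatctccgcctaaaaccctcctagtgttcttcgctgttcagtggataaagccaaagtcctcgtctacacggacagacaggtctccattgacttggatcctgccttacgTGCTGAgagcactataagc
Trpm5, chr7:150280498-150280797, minus strand: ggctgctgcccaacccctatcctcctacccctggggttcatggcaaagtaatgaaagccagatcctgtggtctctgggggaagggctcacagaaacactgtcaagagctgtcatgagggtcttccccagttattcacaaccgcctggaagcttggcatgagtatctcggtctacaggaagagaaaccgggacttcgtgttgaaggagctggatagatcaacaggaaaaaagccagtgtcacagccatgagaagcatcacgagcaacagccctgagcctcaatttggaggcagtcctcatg
Olfm4, chr14:80399859-80400158, plus strand: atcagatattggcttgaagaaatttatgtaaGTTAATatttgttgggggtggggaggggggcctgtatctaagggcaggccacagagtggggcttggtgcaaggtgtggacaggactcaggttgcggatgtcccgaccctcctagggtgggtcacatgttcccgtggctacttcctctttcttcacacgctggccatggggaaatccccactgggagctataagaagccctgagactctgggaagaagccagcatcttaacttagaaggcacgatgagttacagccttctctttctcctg
Gm14085, chr2:122310427-122310726, plus strand: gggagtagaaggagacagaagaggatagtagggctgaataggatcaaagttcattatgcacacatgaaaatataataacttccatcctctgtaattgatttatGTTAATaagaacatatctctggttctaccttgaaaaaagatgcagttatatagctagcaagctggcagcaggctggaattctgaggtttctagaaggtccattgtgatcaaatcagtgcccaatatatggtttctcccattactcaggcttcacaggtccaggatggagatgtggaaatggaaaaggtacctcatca
The letters of the HNF1 motif stood in the windows of Olfm4 and Gm14085, and in 7.1% of all 32851 RefSeq windows. Tmem215 held CATCTG, as did 17.2% of windows, and TGCTGA after its start, as did 19.5%. The windows of Trpm5 and Tssk6 held none of the 6 motifs, of which the homeodomain motif stood in 5.29% of all windows, the forkhead motif in 3.65% and the RFX motif in 12.5%. These matches describe the letters and were not tested as binding sites.

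All 8 genes passed the filter. Tmem215 and Trpm5 reached its cutoff in all 3 Tg7 2w libraries, and Olfm4 in all 3 Tg7 12w libraries. The other genes passed only with the Wt libraries, where they were high. At 2w all 8 were called lower in Tg7 islets, where 4.55% of tested genes were called lower and 6.07% higher. At 12w the count was 6 of 8, where 11.2% were called lower and 12.5% higher. The 3 Tg7 libraries all lay below the 3 Wt libraries for 8 of 8 genes at 2w, against 18.2% of tested genes, and for 6 of 8 at 12w, against 16.4%. The exceptions at 12w were Tssk6 and Gm15644. These counts follow from how the genes were chosen, and nothing is read from them.

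**Figure D1:**
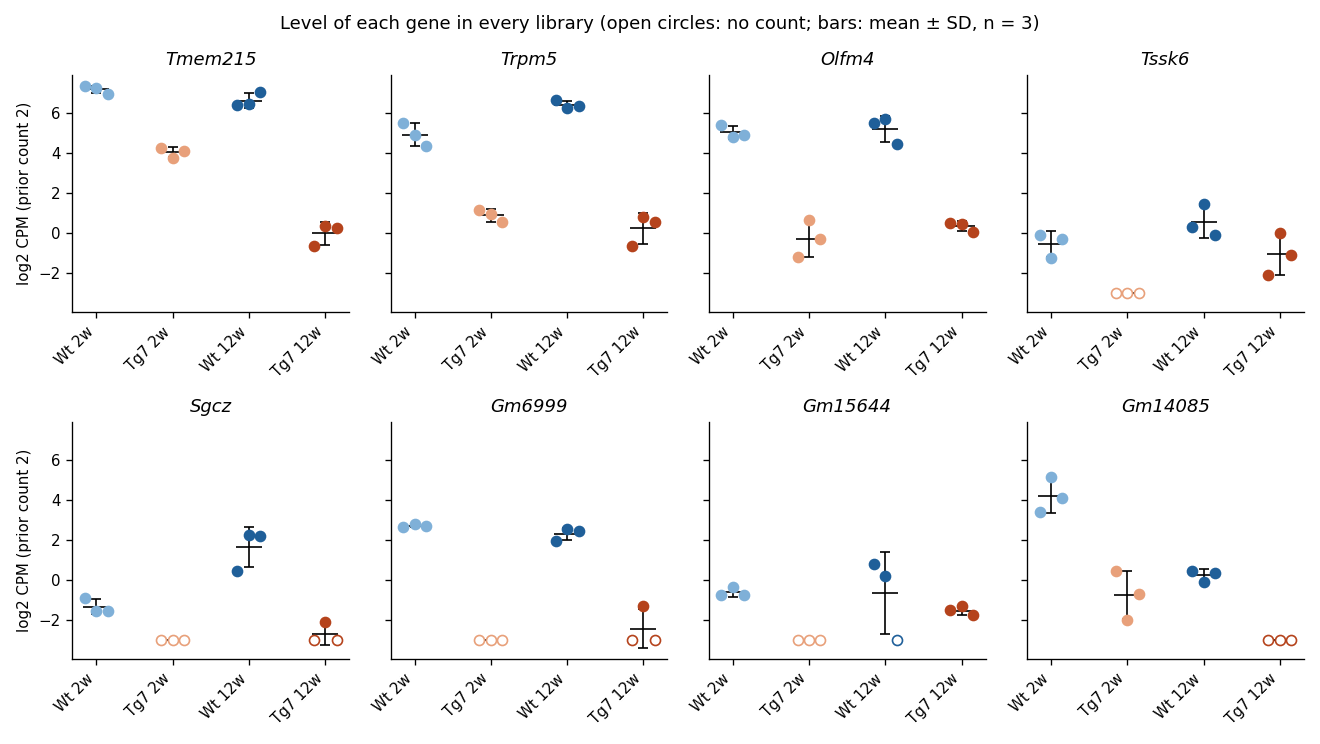
Level of each of the 8 genes (panels) in every library, as log2 CPM with a prior count of 2 on the vertical axis and the 4 groups on the horizontal axis. Points are libraries, open points are libraries without a count, and bars are mean ± SD (n = 3). Tmem215 and Trpm5 separate by genotype at both ages, and the 12w groups of Tssk6 and Gm15644 overlap.

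Trpm5 lies on the minus strand of chr7:150255058-150280547 and has 6398 exonic bases. It had 752, 406 and 379 counts in the Wt 2w libraries, 40, 28 and 27 in Tg7 2w, 787, 964 and 1214 in Wt 12w, and 9, 29 and 24 in Tg7 12w. Every Wt library lay above every Tg7 library of its age, and the Tg7 libraries of both ages overlapped each other. Its level was 31.5 ± 12.3 CPM in Wt 2w and 1.76 ± 0.398 CPM in Tg7 2w islets, and 85.5 ± 12.0 CPM in Wt 12w and 1.16 ± 0.578 CPM in Tg7 12w islets. The fitted log2 fold change of Tg7 over Wt was -4.16 (SE 0.34) at 2w and -6.19 (SE 0.37) at 12w. The larger difference at 12w came with a higher Wt level, while the Tg7 libraries overlapped between the ages.

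Tmem215, at chr4:40419213-40424201 on the plus strand with 4733 exonic bases, was the gene of the 8 with the most reads in Wt islets. The Wt 2w libraries held 2702, 2035 and 2342 counts, the Tg7 2w libraries 357, 208 and 343, the Wt 12w libraries 662, 1080 and 1969, and the Tg7 12w libraries 9, 21 and 19. No groups of the same age overlapped, and the Tg7 12w libraries also lay below all Tg7 2w libraries. The 4 groups averaged 145 ± 18.4, 16.5 ± 2.79, 100.1 ± 27.0 and 0.918 ± 0.358 CPM in that order. Tg7 islets thus kept 11.6% of the Wt level at 2w and 0.880% at 12w, with log2 fold changes of -3.13 (SE 0.22) and -6.76 (SE 0.29). Among the 4 genes with Tg7 2w counts, Tmem215 had the smallest ratio of Wt to Tg7 at 2w (8.60).

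Olfm4 and Gm6999 are neighbours on the plus strand of chromosome 14. Olfm4 (chr14:80400109-80422667, 2570 exonic bases) starts 41575 bases after the end of the non-coding Gm6999 (chr14:80236519-80358533, 2658 exonic bases). Olfm4 had 717, 377 and 560 counts in Wt 2w, 6, 22 and 14 in Tg7 2w, 358, 641 and 330 in Wt 12w, and 23, 23 and 16 in Tg7 12w libraries. Its groups separated by genotype at both ages and overlapped between ages within each genotype. The level was 33.4 ± 8.01 CPM in Wt 2w against 0.814 ± 0.564 CPM in Tg7 2w islets, and 39.3 ± 15.3 CPM in Wt 12w against 1.16 ± 0.214 CPM in Tg7 12w islets. The log2 fold changes of -5.39 (SE 0.43) and -5.07 (SE 0.41) were within 1 SE of each other, and the 2w value was -6.01 without Tg7 2w replicate 2.

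Gm6999 had 105, 91 and 121 counts in Wt 2w libraries and no count in any Tg7 2w library. At 12w it had 30, 71 and 80 counts in Wt libraries and 0, 5 and 0 in Tg7 libraries, so that a single library held every Tg7 read of the gene. With a floor of 3 counts over the Tg7 group, Gm6999 was at least 117-fold higher in Wt 2w than in Tg7 2w islets. The ratio of Wt to Tg7 at 12w was 54.3, with an exact 95% interval of 22.9 to 169 that covers counting error only, like the other counting intervals here. The fitted log2 fold change at 12w was -5.61 (SE 0.70), and without Tg7 12w replicate 2, which leaves no Tg7 count, Wt was at least 59.8-fold higher. Across the 12 libraries the log2 CPM of Olfm4 and Gm6999 had a Pearson r of 0.968, the highest of all pairs among the 8 genes, a description of libraries that fall into the groups the genes were chosen by. Gm10845, which lies inside Gm6999 on the opposite strand without shared exonic bases, was at 6.74 CPM in Wt 2w and 7.29 CPM in Tg7 2w islets (adjusted p = 0.867), and at 7.23 and 7.64 CPM at 12w (adjusted p = 0.876).

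Gm14085 (chr2:122310677-122353776, plus strand, 4996 exonic bases) was the gene of the 8 whose Wt level fell most with age. It had 175, 471 and 313 counts in Wt 2w libraries, 23, 2 and 10 in Tg7 2w, 10, 10 and 17 in Wt 12w, and none in any Tg7 12w library. Wt lay above Tg7 at both ages, and the Wt 12w libraries overlapped the Tg7 2w libraries. Its level was 20.6 ± 12.6 CPM in Wt 2w, 0.617 ± 0.557 CPM in Tg7 2w and 1.06 ± 0.241 CPM in Wt 12w islets. At 2w the log2 fold change was -5.00 (SE 0.61), or -5.92 on leaving out Tg7 2w replicate 1 and -4.41 on leaving out replicate 2 of Wt 2w. At 12w the Wt level was at least 18.5-fold above that of Tg7, from the floor of 3 counts. The coding sequence of Gm14085 is identical to that of Slc28a2 at 94.6% of 1983 bases, and 16% of its 100-base stretches, the read length, also occur in Slc28a2 transcripts. Reads from the shared stretches cannot be assigned, so the counts of both genes are uncertain to that extent.

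Sgcz spans 1139211 bases on the minus strand (chr8:38585352-39724562) with 3027 exonic bases. The Wt 2w libraries held 7, 3 and 4 counts and the Tg7 2w libraries none, while the Wt 12w libraries held 10, 58 and 66 and the Tg7 12w libraries 0, 2 and 0. Wt and Tg7 did not overlap at either age, but at 2w the Wt libraries themselves were close to the floor. Sgcz was at least 5.15-fold higher in Wt 2w than in Tg7 2w islets, and at 12w the ratio was 100.5 (exact 95% interval 27.3 to 838.5). Both Tg7 12w counts were in replicate 2, without which Wt was at least 44.3-fold higher. The microRNA gene Mir383 inside Sgcz had no count in any library.

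Tssk6 (chr8:72426083-72427415, plus strand) consists of 1 exon of 1333 bases, of which 375 are also exonic in Ndufa13 on the other strand. It had 14, 4 and 13 counts in Wt 2w and none in Tg7 2w libraries, an at least 11.4-fold difference. At 12w it had 9, 33 and 12 counts in Wt and 2, 16 and 6 in Tg7 libraries, which overlapped. The ratio at 12w was 3.38 (exact 95% interval 2.05 to 5.71) and the log2 fold change -1.75 (SE 0.77), which became -1.08 on leaving out Wt 12w replicate 2 and -2.70 on leaving out replicate 2 of Tg7 12w. Tssk6 was thus without a count in Tg7 islets at 2w and held counts in every Tg7 12w library. Of its 100-base stretches 22.4% also occur in Ndufa13 transcripts, on the other strand.

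Gm15644, a single block of 387 bases (chr6:66962479-66962865, plus strand) within an intron of Gng12 on the same strand, had 8, 9 and 9 counts in Wt 2w and none in Tg7 2w libraries. At 12w it had 13, 13 and 0 counts in Wt and 4, 5 and 3 in Tg7 libraries. The Wt 12w libraries were split, with replicate 4 below every Tg7 12w library. It was at least 9.56-fold higher in Wt 2w than in Tg7 2w islets, and at 12w the ratio was 3.25 (exact 95% interval 1.58 to 7.07) with a log2 fold change of -1.86 (SE 1.01). Leaving out Wt 12w replicate 1 gave -1.15, and leaving out replicate 4 gave -2.51. None of its 100-base stretches occurs in an annotated protein-coding transcript of another gene.

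**Figure D2:**
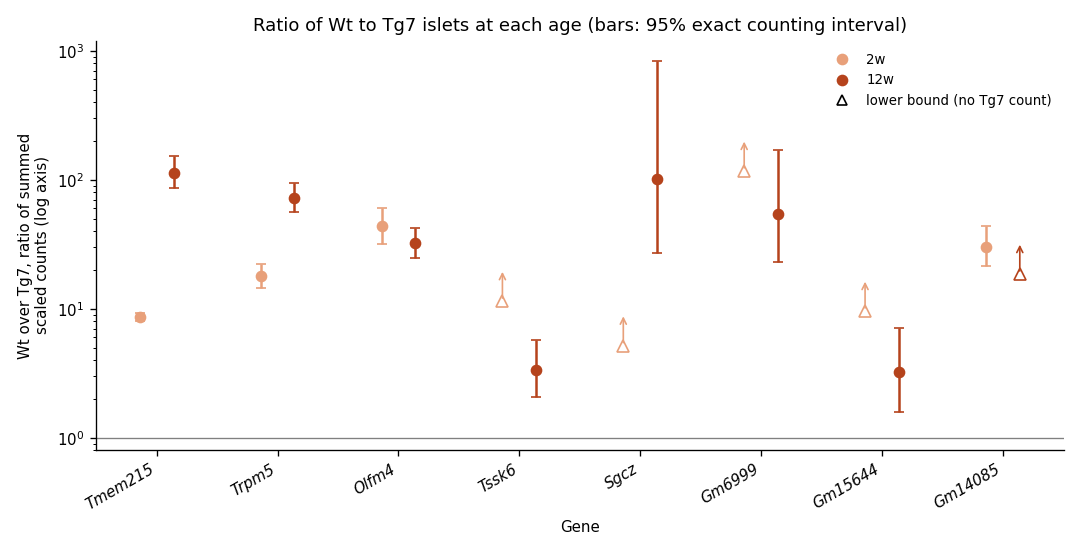
Ratio of Wt to Tg7 islets for each gene at 2w (light) and 12w (dark), from counts summed over 3 libraries and scaled, on a log axis. Bars are exact 95% counting intervals, and open triangles with arrows are lower bounds where no Tg7 library held a count. Where Tg7 counts were found, the ratios run from 3.25 for Gm15644 to 114 for Tmem215, both at 12w, and the highest bound is that of Gm6999 at 2w, at least 117-fold.

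The genes rank differently by level than by loss. Per kilobase of exon, Wt 2w islets held most of Tmem215 (30.6 CPM per kb), followed by Olfm4 (13.0), Trpm5 (4.93), Gm14085 (4.12), Gm6999 (2.43), Gm15644 (1.39), Tssk6 (0.454) and Sgcz (0.0935). Trpm5 and Gm14085 were within their spread (SD 1.92 and 2.52 CPM per kb). In Wt 12w islets Tmem215 (21.1 ± 5.70 CPM per kb), Olfm4 (15.3 ± 5.94) and Trpm5 (13.4 ± 1.88) led, with overlapping libraries between Tmem215 and Olfm4 and between Olfm4 and Trpm5, and Gm14085 (0.213) was last. In Tg7 12w islets the highest levels per length among the 8 were those of Gm15644 (0.580 ± 0.136 CPM per kb), Olfm4 (0.452 ± 0.0831) and Tssk6 (0.335 ± 0.297), with overlapping libraries.

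The change of the genes with age in Wt islets is a contrast that did not choose them, although it shares the Wt libraries. It was tested in the same edgeR model. Sgcz is left out of the test, since 3 Wt 12w libraries and no library of another group brought it past the expression filter. Of the other 7 genes 1 was called lower and 1 higher at 12w than at 2w, beside 7.91% and 7.9% of all tested genes. Gm14085 was lower, by a log2 fold change of -4.28 (SE 0.60, edgeR adjusted p = 6.26e-04), and all 3 Wt 12w libraries lay below all 3 Wt 2w libraries. Trpm5 was higher by 1.44 (SE 0.28, adjusted p = 0.00342), again without overlap in CPM. Sgcz, as a description, was at 0.283 ± 0.115 CPM in Wt 2w and 3.42 ± 1.87 CPM in Wt 12w islets, and the libraries did not overlap. The calls of Gm14085 and Trpm5 were kept under all 19 alternative settings.

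Tmem215 was at -0.53 (SE 0.20, adjusted p = 0.0894) in this contrast. Without Wt 12w replicate 4 the value was -0.78 (adjusted p = 0.00507), and with library size alone, under which the median of all genes shifts by -0.39, it was -0.90 (adjusted p = 0.0178). Olfm4 (0.23, adjusted p = 0.655), Tssk6 (1.30, adjusted p = 0.261), Gm6999 (-0.38, adjusted p = 0.624) and Gm15644 (0.64, adjusted p = 0.682) did not pass the threshold. The β-cell markers moved in the same contrast with 5 of 16 called higher and none lower (median log2 fold change 0.28, against 0.04 over all tested genes). Stellate and fibroblast markers were lower in Wt 12w islets (4 of 4 called, median -3.16), as were endothelial markers (3 of 3, median -1.33), and their part in the values of the 8 genes was not tested.

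**Figure D3:**
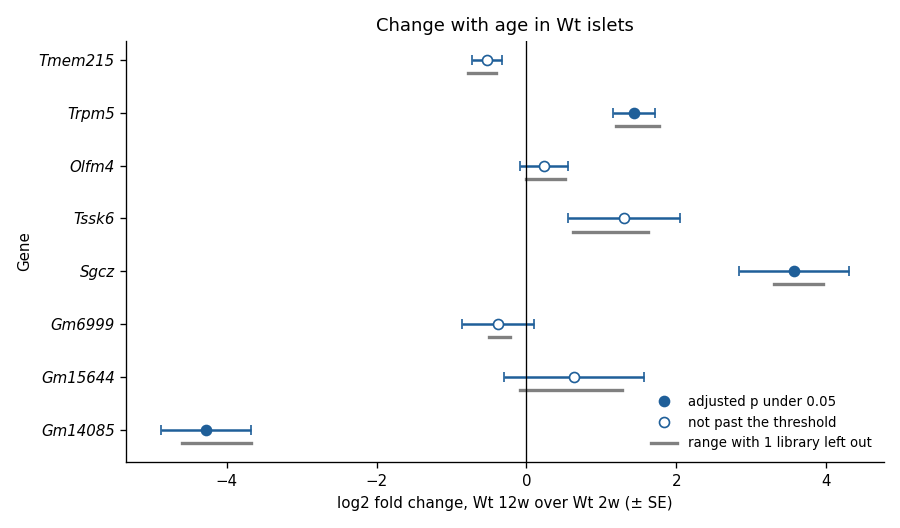
Change from 2w to 12w in Wt islets for the 8 genes as log2 fold change ± SE on the horizontal axis. Filled points had an adjusted p below 0.05 and open points did not, the point of Sgcz being a description, and grey lines give the range when 1 of the 12 libraries was left out. Gm14085 lies at -4.28, Trpm5 at 1.44 and Sgcz at 3.57, and the ranges of Olfm4 and Gm15644 reach below 0.

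Genes beside or over the 8 in the annotation were not used to choose them and were tested between Tg7 and Wt. Next to Gm14085, the pseudogene Bambi-ps1 ends 17414 bases before its start on the other strand. Bambi-ps1 was lower in Tg7 islets at both ages, from 18.6 to 1.29 CPM at 2w (log2 fold change -3.84, adjusted p = 1.24e-05) and from 7.05 to 1.03 CPM at 12w (-2.77, adjusted p = 6.78e-05), under every one of the 19 alternatives. In Wt islets it was also lower at 12w than at 2w (-1.39, adjusted p = 0.00641), as Gm14085 was. On the other side Gatm, which makes guanidinoacetate for creatine synthesis, was higher in Tg7 islets at 2w (1.12, adjusted p = 0.00653) and at 0.51 at 12w (adjusted p = 0.12).

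Gng12, a G protein γ subunit gene that contains Gm15644 in an intron, was lower from 553 to 144 CPM at 2w (-1.94, adjusted p = 1.24e-05) and from 549 to 165 CPM at 12w (-1.74, adjusted p = 9.66e-06), also under all 19 alternatives. Reads of unspliced Gng12 RNA and of Gm15644 cannot be told apart, since they share a strand. Around Trpm5, the tetraspanin gene Cd81 was higher in Tg7 islets at 12w (1.66, adjusted p = 1.01e-05) and at 2w (0.64, adjusted p = 0.0194), the 2w call being lost without any 1 of the Wt 2w libraries or without Tg7 2w replicate 2 (adjusted p between 0.053 and 0.0846). The values of Cd81 at the 2 ages differed by 1.02 (adjusted p = 0.0436), an interaction that 1.18% of all tested genes passed. Kcnq1 was at -0.19 (adjusted p = 0.777) and 0.01 (adjusted p = 0.985).

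Tssc4 shares 220 exonic bases with Trpm5 on the other strand, and the sources used here do not say whether counting used the strand. It was lower at 2w (-0.86, adjusted p = 0.00779) and at -0.37 at 12w (adjusted p = 0.156). Ndufa13, a subunit gene of respiratory complex I over Tssk6, was at 0.37 (adjusted p = 0.238) and 0.16 (adjusted p = 0.608). On the other side of Tssk6, Gatad2a, a chromatin repressor subunit gene, was lower at 2w (-0.42, adjusted p = 0.0196), a call lost with library size alone (adjusted p = 0.214) and without Wt 2w replicate 1 or 3 or replicate 3 of Tg7 2w (adjusted p between 0.0679 and 0.0849), and was at -0.20 at 12w (adjusted p = 0.172). Yjefn3 near Tssk6, Pcdh8 near Gm6999 and 4930597O21Rik near Gm15644 passed the threshold of the edgeR test at neither age. Of these, 4930597O21Rik had 48 counts over the Wt 2w group and 10 over the Tg7 2w group (-2.42, adjusted p = 0.0928) and was called there by DESeq2 and without Tg7 2w replicate 3. The untested 4933428C19Rik, 5671 bases after Tmem215 on the other strand, had 7 and 10 counts over the Wt 2w and Wt 12w groups and none in any Tg7 library.

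**Figure D4:**
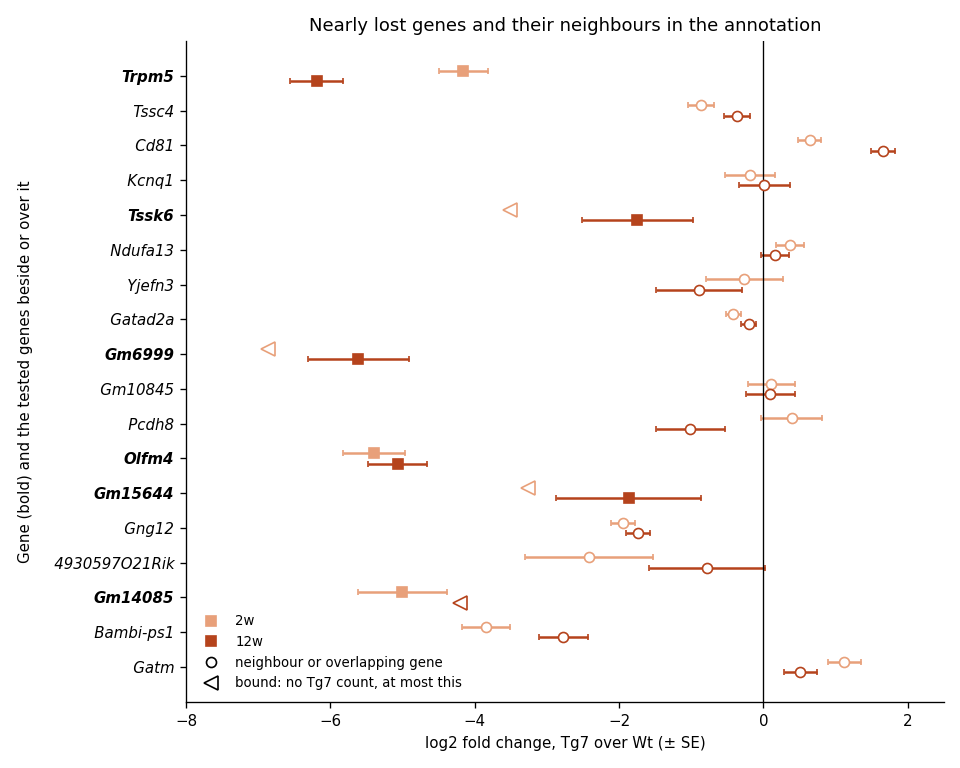
Log2 fold change of Tg7 over Wt ± SE at 2w (light) and 12w (dark) for the nearly lost genes (squares, bold names) and the tested genes beside or over them (open circles). Open triangles are bounds for genes without a Tg7 count, whose fold change is at most the value shown. Bambi-ps1 and Gng12 lie below 0 at both ages, and Cd81 lies above 0 at both.

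The relatives of the genes are given by family, from lists chosen for the biology of each gene. Of the other TRPM channels 4 of 7 were tested, and at 2w Trpm3 was higher (1.72, adjusted p = 0.00194) and Trpm2 lower (-0.76, adjusted p = 0.0207), with a median of -0.04. The Trpm2 call was lost with library size alone and without any 1 of the Wt 2w libraries or Tg7 2w replicate 3 (adjusted p between 0.0553 and 0.0911). Trpm4, which like Trpm5 is opened by calcium, was at 16.5 CPM in Wt 2w and 17.7 CPM in Tg7 2w islets (0.11, adjusted p = 0.782), and at 20.9 and 21.3 CPM at 12w (0.04, adjusted p = 0.925). At 12w 1 of 4 was lower, Trpm7 (-0.50, adjusted p = 0.035), a call kept in 8 of 19 alternatives, with a median of -0.07.

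Of 10 genes of the taste cascade in which Trpm5 acts, 2 were tested (medians 0.10 and -0.28). None was called at 2w by edgeR or DESeq2, and 0 had an unadjusted p below 0.05. Itpr3, the calcium release channel upstream of Trpm5, was at -0.27 (adjusted p = 0.321) at 2w and lower at 12w (-0.59, adjusted p = 0.0211), kept in 13 of 19 alternatives, and Tas1r3 was called at neither age. Among the KATP and L-type calcium channel genes, which set β-cell excitability together with Trpm5, 2 of 4 were lower at each age (medians -0.79 and -0.50). At 2w these were Kcnj11 (-1.11, adjusted p = 7.4e-04) and Abcc8 (-1.23, adjusted p = 4.75e-04). At 12w they were Kcnj11 (-0.61, adjusted p = 0.0138) and Cacna1c (-0.59, adjusted p = 0.00952), and neither call was kept with library size alone (adjusted p = 0.503 and 0.543). The Kcnj11 call at 12w was also lost with the replicate block (adjusted p = 0.0501) and without Tg7 12w replicate 3 (adjusted p = 0.0658).

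Of the nucleoside transporters related to Gm14085, all 7 were tested, with 1 lower and 2 higher at each age (medians 0.72 and 0.82). Slc28a2 was the lower, from 9.30 to 1.16 CPM at 2w (-2.97, adjusted p = 0.0192) and from 4.70 to 0.688 CPM at 12w (-2.78, adjusted p = 0.0181). Its counts are not fully separate from those of Gm14085, with which it shares 100-base stretches. Its call was lost at 2w when Wt 2w replicate 1 or 3, or replicate 3 of Tg7 2w, was left out (adjusted p between 0.0565 and 0.0667). At 12w it was lost with the replicate block (-1.76, adjusted p = 0.135) and on leaving out Wt 12w replicate 4, or replicate 1 or 3 of Tg7 12w (adjusted p between 0.0775 and 0.0868). The equilibrative transporters Slc29a1 (0.76 and 0.98) and Slc29a4 (0.89 and 1.17) were the higher genes at both ages, under all 19 alternatives (adjusted p between 5.43e-05 and 0.00201 in the 4 tests).

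Of the dystrophin complex, in which ζ-sarcoglycan sits, 12 of 14 genes were tested. None was called at 2w by edgeR, with 6 at an unadjusted p below 0.05 and 1 called by DESeq2, and 3 were lower and 2 higher at 12w (medians 0.24 and 0.03). The δ-sarcoglycan gene Sgcd did not pass the threshold at 2w, with 20 counts over the Wt 2w group and 1 over the Tg7 2w group (ratio 22.1, exact 95% interval 3.53 to 914, adjusted p = 0.0592). At 12w Sgcd had 146 and 44 counts (-2.21, adjusted p = 0.0365), kept in 9 of 18 alternatives. Dmd, dystrophin itself, was higher in Tg7 12w islets (1.40, adjusted p = 7.68e-04). The other calls at 12w, Sntb2, Dtnb and Dtna, were each kept in 11 or fewer of 19 alternatives.

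Among the olfactomedin genes related to Olfm4, 7 of 8 were tested. None was lower at either age, 1 was higher at 2w and 4 were higher at 12w (medians 0.26 and 0.93). Olfml2b was higher at both ages (1.001, adjusted p = 0.0267, and 1.79, adjusted p = 3.14e-04), the 2w call being lost when Wt 2w replicate 1 or 3, or Tg7 2w replicate 1, was left out (adjusted p between 0.0809 and 0.121). At 12w Olfm1 (0.93, adjusted p = 0.00514) and Olfml2a (1.54, adjusted p = 0.00342) were also higher, and Olfml3 (1.25, adjusted p = 0.0446) in 8 of 19 alternatives. Of the TSSK kinases 2 of 5 were tested and none was called at either age by edgeR (medians -0.51 and 0.69). At an unadjusted p below 0.05 there was 1 at 2w and 0 at 12w, and DESeq2 called 0 at both ages. Tssk3, which was not tested, had 10 counts over the Wt 2w group and none over the Tg7 2w group.

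**Figure D5:**
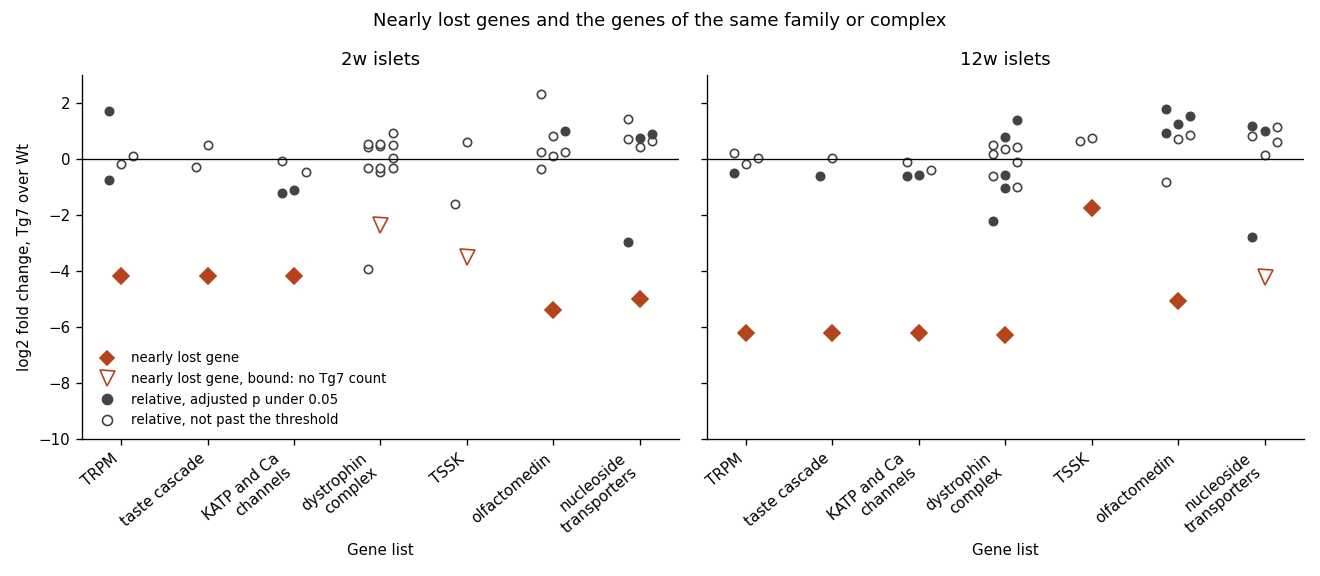
Log2 fold change of Tg7 over Wt at 2w (left) and 12w (right) for the nearly lost gene (diamond, or open triangle for a bound where no Tg7 count was found) and for the tested genes of its family or complex (circles, filled where the adjusted p was below 0.05). Trpm5 is repeated in the 3 channel lists, at -4.16 and -6.19. Slc28a2 (-2.97 and -2.78) and Sgcd at 12w (-2.21) are the filled circles below -2. Slc28a2 shares 100-base stretches with Gm14085, so their counts are not fully separate.

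Markers of other cells that express some of these genes were examined beside them. Tuft cells carry Trpm5, and Gfi1b and Il25, which mark them, held at most 1 count over any group. Of 6 tuft cell markers 3 were tested, with none called at 2w and 2 higher at 12w (medians 0.01 and 1.27). The calls were Dclk1 (1.27), kept in 19 of 19 alternatives, and Avil (1.66), kept in 11. Pou2f3, which was not tested, had 12 counts over the Wt 12w group and 1 over the Tg7 12w group (ratio 18.0, exact 95% interval 2.66 to 770). The summed level of the 6 was 37.7 to 45.3 CPM in Wt 2w, 33.3 to 55.3 in Tg7 2w, 27.4 to 36.2 in Wt 12w and 58.9 to 78.4 in Tg7 12w libraries. Dclk1 carried most of this sum, with means of 36.96, 37.03, 25.06 and 60.21 CPM in these groups, in that order. Neutrophils carry Olfm4, and of 6 of their granule genes only Lcn2 was tested. It was higher in Tg7 2w islets (3.44, adjusted p = 7.24e-04) and at 0.97 at 12w (adjusted p = 0.161). Lcn2 carried nearly all counts of the 6 genes. Ltf held 7 and 10 over the Tg7 2w and Tg7 12w groups, and 0 and 1 over the Wt 2w and Wt 12w groups. Camp, S100a8 and S100a9 held at most 4 over any group, and Ngp had none in any library. The summed level of the 6 genes was 0.213 to 0.830 CPM in Wt 2w and 1.03 to 1.51 CPM in Wt 12w libraries, against 5.39 to 6.70 and 1.49 to 3.54 CPM in Tg7 2w and Tg7 12w libraries. In the same Wt groups Olfm4 was at 33.4 and 39.3 CPM, and the part of neutrophils in that level was not tested.

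Acinar markers were at 9.37 to 11.6 CPM in Wt 2w and 19.9 to 25.7 CPM in Tg7 2w libraries, and at 13.3 to 18.1 and 13.4 to 14.3 CPM at 12w (summed, 5 of 7 tested, none called, medians 1.52 and -0.18), and Amy2a5 had no count. Most of the sum was Cela1, at 9.80 CPM in Wt 2w and 17.2 CPM in Tg7 2w islets. Ctrb1 had 165, 67 and 0 counts in the Tg7 2w libraries. Of duct markers 3 of 4 were tested, with none called at 2w and 1 higher at 12w (medians 0.37 and 0.24), Muc1, kept in 13 of 19 alternatives. None of 5 α-cell markers was called at either age (medians 0.34 and 0.21), and of 3 δ- and PP-cell markers 1 was higher at 2w and none at 12w (medians 0.22 and 0.00). That gene, Ppy (1.03, adjusted p = 0.0475), was kept in 11 of 19 alternatives and lost without any 1 of the Wt 2w libraries. Endothelial markers were called at 12w only, with 3 of 3 higher (medians -0.10 and 0.76), of which Kdr was kept in 17 of 19 alternatives. Of 3 macrophage markers none was called at 2w and 1 was lower at 12w (medians -0.25 and -0.63), Csf1r, lost with library size alone. Stellate and fibroblast markers were higher in 2 of 4 at 2w and in 4 of 4 at 12w (medians 0.59 and 2.60), and the 2w call of Col3a1 was lost without Wt 2w replicate 2 or 3. In these lists without a call by edgeR at 2w, the genes at an unadjusted p below 0.05 were 2 acinar, 1 duct and 1 α-cell marker and 0 endothelial, macrophage and tuft cell markers, and DESeq2 called 1 acinar and 1 duct marker. In those without a call at 12w, both counts were 0. The part of these cells in the values of the 8 genes was not tested.

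The genes whose log2 CPM followed each of the 8 most closely over the 12 libraries are given by Pearson r, without a test, since all share the libraries and their groups. They were Mpp3 (0.980) and Mapk14 (0.976) for Tmem215, Dnajc24 (0.984) and Ucn3 (0.983) for Trpm5, Plk3 (0.982) and St8sia5 (0.980) for Olfm4, and Klraq1 (0.977) and Plk3 (0.973) for Gm6999. For Gm14085 they were Ffar3 (0.942) and Slc7a8 (0.936), for Sgcz Otud7b (0.980) and Cep120 (0.969), for Tssk6 Gm5069 (0.925) and Srp68 (0.922), and for Gm15644 Cdk2ap2 (0.963) and Yif1b (0.946). Ucn3, a peptide of mature β-cells, had log2 fold changes of -3.60 at 2w and -4.96 at 12w, beside -4.16 and -6.19 for Trpm5. Mapk14 and Mpp3 had values closer to 0 than Tmem215, at -0.25 and -1.02 at 2w and at -0.62 and -1.77 at 12w.

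No single threshold separated the 8 genes from the rest. Other genes are given here only where they were called and all Tg7 libraries lay below all Wt libraries of that age. At 2w the non-member genes among them with the lowest log2 fold changes were Ovol2 (-6.50), Cox6a2 (-5.34), Mafa (-4.77), Rbp2 (60 counts over Wt and 2 over Tg7) and Gm14487 (28 and 1), below those of Trpm5 or Tmem215. At 12w they were Cox6a2 (-7.02), Ceacam10 (16 counts over Wt and none over Tg7), Mlph (-5.56), Msln (-5.41) and Mafa (-5.02), beside -5.07 for Olfm4. The 2w call of Gm14487 was kept in 8 of 17 alternatives. It was lost without any 1 of the Wt 2w, Tg7 2w or Tg7 12w libraries, and at 12w the gene was at 0.71 (adjusted p = 0.643).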

How the data were processed

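Islet RNA libraries of 12 pools (NEB Ultra II kit, paired-end reads of 100 bases) were analysed. The authors trimmed reads with Trimmomatic, aligned them to mm9 with TopHat2 2.0.11 and deposited raw counts per Ensembl gene from featureCounts; the labels name bcl2fastq 2.20.0. No source used here gives the strand setting. Every count column was used, 37205 of 37991 identifiers had a symbol in the matching mm9 annotation (NCBIM37), and no row without a gene was present.

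After filterByExpr with a minimum count of 10 and a minimum total of 15, genes were fitted in edgeR 4.0.16 (R 4.3.3) by glmQLFit and glmQLFTest as 4 group means with TMM factors, checked on simulated counts. All adjusted p values are from this model unless another setting is named, and they measure the spread between pools. Standard errors were obtained from the F statistic and the fold change. Library numbers did not pair the groups (residual correlations -0.167 to -0.0112), so no block was used. A group without a count was given a floor of 3 counts over the group. Named genes were the 8 genes, their annotated neighbours, hand-written family and marker lists and the 2 genes most alike to each. Added to these were the 5 lowest non-member genes at each age, among called genes whose Tg7 libraries all lay below the Wt libraries. These genes and lists were chosen with earlier results of these data known. Alternatives were no filter, library size alone, upper-quartile factors, at least 50 counts in 3 libraries, DESeq2 1.42.0, the 6 libraries of a contrast, the replicate block and each library left out. Number 4 occurs only in Wt 12w, so the block gives that library its own term, and these 2 alternatives are close to each other for it. Figures used Python 3.11.15 and matplotlib 3.10.9.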

Additional observations from a re-analysis of the deposited data

Results flagged for a closer look

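Among the genes named beside the 8, the change from Wt to Tg7 differed between 12w and 2w for 7 genes. This was the interaction term of the edgeR model, a difference of log2 fold changes (12w minus 2w), which 1.18% of all tested genes passed. Some named genes were picked for a low value at a single age, so nothing is read from their number. The difference was 1.02 for Cd81, next to Trpm5 (adjusted p = 0.0436), and 0.91 for the endothelial gene Pecam1 (adjusted p = 0.0496), both close to the threshold. It was -1.15 for the β-cell zinc transporter Slc30a8 (adjusted p = 0.00782). Msln stood at -3.58. It was named for its low 12w fold change, which is part of this difference, so no p is given. The stellate and fibroblast genes Col1a1, Col3a1 and Pdgfrb stood at 2.85, 2.63 and 1.60 (adjusted p between 5.13e-04 and 0.00176).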

How the results depend on the processing

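In the contrasts of Tg7 with Wt, the log2 fold changes of the 8 genes kept their sign under every alternative that gave a value. Because these same reads chose the genes, nothing is read from that. Genes without a Tg7 count had no fixed size. The number of genes called was 1695 at 2w (754 to 3071 with 1 library left out), 3772 at 12w (2417 to 4036) and 2524 between Wt ages (1336 to 4020). With the replicate block it was 2630 at 2w and 3817 between Wt ages, and between Wt ages 4120 with library size alone and 1283 with the 6 libraries of the contrast. Library size alone moved the median of all genes by 0.17, 0.44 and -0.39 and the share of calls that were higher from 57.2%, 52.7% and 50% to 84.0%, 93.5% and 7.89%, and upper-quartile factors moved that share at 12w to 64.7%. Between Wt ages, Olfm4 turned to -0.18 with library size alone and ranged from -0.0090 to 0.52 with 1 library left out, and Gm15644 from -0.090 to 1.28. The sign of a change with age in these 2 genes was therefore not fixed by the data. Sgcz, not tested there, stood at 2.80 with the replicate block (3.57 without). The block changed the call between Wt ages of Tmem215 (-0.80, adjusted p = 0.0102). Number 4 occurs only in Wt 12w, so the block gives that library its own term, much as leaving it out does (-0.78). Upper-quartile factors changed the call of Tmem215 too (-0.58, adjusted p = 0.0468), and the cause of that was not tested. Over the Wt 2w group Sgcz had 14 counts, Gm15644 26 and Tssk6 31, so depth allows only coarse ratios for them.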
